A study of Mus musculus with 6 samples.

Results

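Surface molecules that change as natural killer (NK) cells mature were followed in RNA from mouse spleen, in cells that carry the MHC class I receptor Ly49G but not Ly49C/I (called Ly49G+) and in cells that carry Ly49C/I but not Ly49G (called Ly49I+). The genes were Klrg1, Ly6c1, Ly6c2, Ly6a, Ly6e, Spn, Thy1, Cd44, Cd7 and Kit, chosen by symbol as lectin, Ly6 family, sialomucin and other markers of NK maturation. Of these 10 genes, 8 were among the 8520 genes of the deposited table, and Ly6c1 and Ly6a were not analysed here. Both groups had 3 libraries and came from untreated C57BL/6Ncr mice aged 6 to 8 weeks, so strain, age and tissue were shared. The spleens of 20 mice were used, NK cells were enriched magnetically, Fc receptors were blocked with the antibody 2.4G2, and the sort by flow cytometry took NK1.1+ CD3- cells with antibodies against Ly49G and Ly49C/I. How many mice fed each library is not stated, so each p-value reflects only how these libraries vary, part of which may be technical.

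NK cells leave the bone marrow as CD27-bearing cells and pass through an intermediate stage to a late stage with high CD11b. Late cells add KLRG1, an inhibitory receptor that binds cadherins, and more of the Ly6C and CD43 proteins, whereas KIT, the receptor for stem cell factor, is a property of early cells. The Ly6 proteins and THY1 are small molecules held on the membrane by a GPI lipid anchor. CD43, the product of Spn, is a long mucin whose many O-linked sugars carry sialic acid.

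Relative to Ly49I+ cells, Ly49G+ cells had less RNA for the late markers Klrg1 and Ly6c2 and slightly less for Spn, and more RNA for Cd7. Klrg1 stood at 0.417 of its Ly49I+ level and Ly6c2 at 0.458, while Spn stood at 0.801 and Cd7 at 1.37 times its Ly49I+ level. Kit was also above Ly49I+ in all 3 Ly49G+ libraries, and Thy1, Cd44 and Ly6e had overlapping groups. Of the 8 measured genes 3 fell, 1 rose and 4 did not pass in limma at a Benjamini-Hochberg adjusted p of 0.05 over all 8520 genes, a test that 3.59% of all genes passed (1.82% higher and 1.77% lower in Ly49G+). Groups did not overlap in 5 of the 8, against 25.8% of all genes. The median absolute log2 difference was 0.30 over the 8 genes and 0.13 over all genes. All adjusted p-values below are from this limma test unless a replicate block is named.

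**Figure D1:**
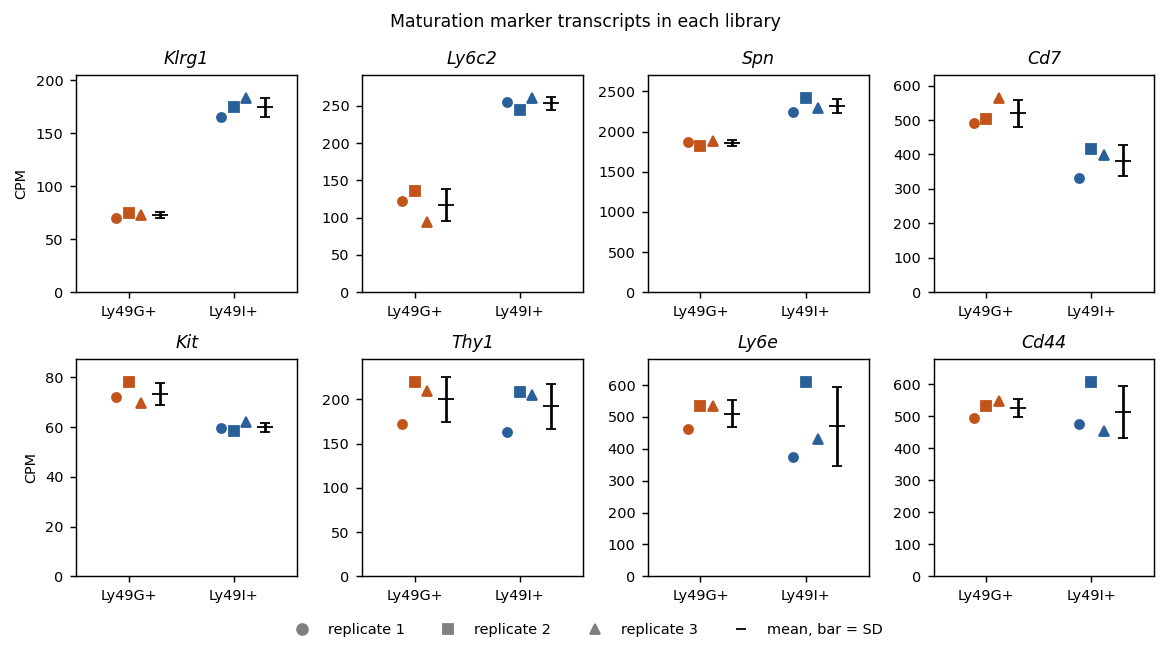
CPM (counts per 1000000 reads, vertical axis from 0) of the 8 measured genes in each of the 3 Ly49G+ and 3 Ly49I+ libraries, with a marker shape for each replicate number and the mean and SD beside the points. Klrg1, Ly6c2 and Spn are lower in every Ly49G+ library, Cd7 and Kit are higher, and Thy1, Ly6e and Cd44 overlap.

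The reads recovered from the table summed to 33599679 to 40892154 per library, and none of the 8 markers had fewer than 2058 reads in a library. Some other genes named for context had far fewer. The table lists genes that reached at least 10.01 CPM in at least 2 libraries; the lowest value of any of the 8 genes was 58.4 CPM, so none was listed through 1 group alone. Of 12 NK cell markers 11 were measured, and none was below 103 CPM in a library. Markers of other cells were also present, and no measured one was at 0 in a library. In 9 monocyte and macrophage markers (of 20 listed, 11 were measured, and Ccr2 and Itgax, abundant in all 6 libraries, were set aside) the summed level ran from 39.1 to 71.8 CPM in Ly49G+ and was 334, 1131 and 263 CPM in Ly49I+ replicates 1, 2 and 3. With Ccr2 and Itgax the sum was 2103 to 2195 CPM in Ly49G+ and 1833 to 2780 CPM in Ly49I+. Csf1r, Adgre4, Cybb, Treml4, Ace, Sirpa and Cst3 were under 10.01 CPM in every Ly49G+ library. They were listed through Ly49I+ alone, so the filter favoured a higher sum there. Of 14 T cell markers 8 were measured, with sums of 374 to 449 CPM in Ly49G+ and 261 to 276 CPM in Ly49I+, and 5 rose in Ly49G+. Among these, Cd3e, Cd3d and Trac were under 10.01 CPM in every Ly49I+ library. They were listed through Ly49G+ alone, so the filter favoured their rise. The T cell sums rest largely on Trbc1 and Cd28, which all 6 libraries carried. Trbc1 averaged 131.5 CPM in Ly49G+ and 113.2 CPM in Ly49I+, and Cd28 134.5 and 82.6 CPM. Of 12 B cell markers 5 were measured, with overlapping sums of 323 to 455 CPM in Ly49G+ and 208 to 462 CPM in Ly49I+. In bulk RNA, fewer cells of a type and less RNA per cell cannot be told apart.

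Klrg1 (gene 50928, GRCm38.p6 chromosome 6, 122270596 to 122282833, minus strand) encodes the inhibitory lectin-like receptor KLRG1, which carries an inhibitory motif in its tail. Its level was 70.0, 75.2 and 73.2 CPM in Ly49G+ replicates 1, 2 and 3, against 166, 175 and 184 CPM in Ly49I+ replicates 1, 2 and 3. The libraries of each group lay close together and the groups were far apart. The log2 difference of Ly49G+ minus Ly49I+ was -1.26 ± 0.07 (SE, 3 libraries per group, adjusted p = 1.09e-05), with a 95% interval from -1.43 to -1.10. Only 4 of the 8520 genes had a smaller p in the limma test. The pairs of libraries with the same replicate number differed by -1.24, -1.22 and -1.33, the narrowest spread of pairs among the 3 genes that fell. Without Ly49I+ replicate 2, the library with the most monocyte RNA, the difference was -1.26 ± 0.09 (adjusted p = 0.00011). KLRG1 binds E-, N- and R-cadherin, and their genes Cdh1, Cdh2 and Cdh4 were not analysed here.

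Ly6c2 (gene 100041546, chromosome 15, 75108161 to 75112066, minus strand) encodes a GPI-anchored Ly6C protein, found on late NK cells and also, at a high level, on classical monocytes. Its neighbour Ly6c1 on the same chromosome encodes a near-identical protein. The coding sequences of the first listed GENCODE M21 transcript of each have the same length of 393 bases and differ at 9 of them (97.7% identical), with a longest identical run of 188 bases. Both are given here over the coding bases 6 to 65, counted from the A of the start codon. This is the stretch of 60 bases with the most differences, and only reads that cover its differing letters can be placed by them. The capitals mark the 6 bases that differ.
Ly6c2: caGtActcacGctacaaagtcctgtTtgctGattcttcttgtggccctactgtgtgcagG
Ly6c1: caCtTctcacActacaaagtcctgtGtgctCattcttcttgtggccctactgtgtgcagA
Of all 100-base windows of the protein-coding Ly6c2 transcripts, 14.9% also occur in Ly6c1, whereas 0 windows of the other 7 measured genes occur in a transcript of another gene. How such reads were treated in the authors' counting is not stated, which leaves the level of Ly6c2 uncertain, and a sum with Ly6c1 could not be made.

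The level of Ly6c2 was 122, 136 and 94.1 CPM in the Ly49G+ replicates in order, against 255, 244 and 261 CPM in the Ly49I+ replicates. The Ly49I+ libraries were nearly level, and the lowest of them was well above the highest Ly49G+ library. The log2 difference was -1.13 ± 0.12 (adjusted p = 0.000812, 95% interval -1.39 to -0.87). Ly49I+ replicate 2, with the highest monocyte sum, had the lowest Ly6c2 level of its group, and without it the difference was -1.15 ± 0.14 (adjusted p = 0.00194). The monocyte sum does not separate classical from other monocytes, and the part of monocyte RNA in the Ly6c2 difference was not tested. The 3 same-numbered pairs gave -1.07, -0.85 and -1.47, a wider spread than for Klrg1, which came from the Ly49G+ side.

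Spn (gene 20737, chromosome 7, 127123637 to 127145552, minus strand) encodes CD43, also called leukosialin, and was the most abundant of the measured genes by read count. Its level was 1868, 1817 and 1883 CPM in the Ly49G+ libraries, against 2245, 2420 and 2291 CPM in the Ly49I+ libraries. The groups were separated, by a gap that was small beside the level itself. The log2 difference was -0.32 ± 0.07 (adjusted p = 0.0383, 95% interval -0.48 to -0.16). CD43 is also abundant on nonclassical monocytes, and the highest Spn value was in Ly49I+ replicate 2, where the monocyte sum was highest. The monocyte part of this difference was not tested directly; without that library the difference was -0.29 ± 0.09 (adjusted p = 0.139). The call was also lost without Ly49G+ replicate 1 (adjusted p = 0.14), 2 (0.201) or 3 (0.123), without the intensity trend (0.0719) and with libraries centred on their medians (0.0553).

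Annotated starts of Ly6c2 and Spn are shown because both transcripts fell and both have a promoter entry in RefSeq's GRCm38.p6 table. Each run holds 250 bases before the start and 50 after it, on the gene's strand. Ly6c2 is given at chr15:75111922-75112221 and Spn at chr7:127137774-127138073. Both windows are at internal starts, inside the RefSeq spans given for the genes. The Spn window is that of its longest protein-coding GENCODE M21 transcript. Capitals mark matches to 5 motifs searched on both strands: GGTGTGA of T-box factors, CAGGTG bound by ZEB factors, TGTGGTT of RUNX factors, CCGGAAG of ETS factors and AGATAA of GATA factors.
Ly6c2: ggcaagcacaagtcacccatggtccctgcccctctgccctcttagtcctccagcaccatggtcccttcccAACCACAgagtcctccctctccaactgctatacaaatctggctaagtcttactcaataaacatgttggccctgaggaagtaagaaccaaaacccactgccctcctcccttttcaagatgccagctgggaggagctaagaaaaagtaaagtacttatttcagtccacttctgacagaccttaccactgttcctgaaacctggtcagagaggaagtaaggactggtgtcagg
Spn: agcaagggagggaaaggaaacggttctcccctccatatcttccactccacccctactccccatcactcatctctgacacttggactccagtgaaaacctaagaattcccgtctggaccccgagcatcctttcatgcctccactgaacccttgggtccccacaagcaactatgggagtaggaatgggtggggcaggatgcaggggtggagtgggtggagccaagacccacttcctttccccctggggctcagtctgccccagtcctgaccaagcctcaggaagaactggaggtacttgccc
The Ly6c2 window held 1 match, AACCACA, the reverse complement of the RUNX letters, at 180 to 174 bases before the start. Another promoter entry of Ly6c2, not printed, holds the same letters at -214 to -208 relative to its own start. RUNX letters occurred in 5.27% of 32851 promoters of this length. The other motifs occurred in 3.98% (T-box), 20.2% (ZEB), 8.86% (ETS) and 11.2% (GATA) of promoters, and none of the 5 had its letters in the Spn window. A match in these letters is a description of the sequence and not a binding site.

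The sugars of CD43 are built by other genes of the table. Of 39 listed O-glycan and sialic acid enzymes 25 were measured, of which 2 rose, 1 fell and 22 did not pass in Ly49G+. Their median log2 difference was -0.03, against -0.02 over all genes, and 9 passed with the replicate block (3 higher and 6 lower). The main test called 3.59% of all genes and the block 11.7%. Gcnt1, whose enzyme adds the core 2 branch that distinguishes the larger glycoform of CD43, averaged 90.3 ± 5.47 CPM in Ly49G+ and 56.3 ± 3.39 CPM in Ly49I+ (SD, n = 3 each). Its log2 difference was 0.68 ± 0.08 (adjusted p = 0.00207), opposite in sign to that of Spn. St3gal6, a sialyltransferase, rose by 0.36 ± 0.07 (adjusted p = 0.0249), and Galnt10, which starts O-glycans, fell by 0.47 on the log2 scale with an SE of 0.10 (adjusted p = 0.0282). St3gal6 and Galnt10 each lost their call without any single Ly49G+ library and without the intensity trend, which left 1 enzyme higher and 0 lower. Galnt10 also lost it without Ly49I+ replicate 2 or 3, which left 2 higher and 0 lower.

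Among the sialomucins 4 of 13 listed genes were measured, and Spn was the 1 that passed. Cd164 differed by 0.15 ± 0.07 (adjusted p = 0.278), and Selplg, which encodes the selectin ligand PSGL-1, by -0.42 ± 0.22 (adjusted p = 0.305). Cd68, a gene of macrophages, differed by -0.73 ± 0.31 (adjusted p = 0.227, and 0.0411 with the replicate block). The linkers that tie the tails of CD43 and CD44 to actin, ezrin, radixin and moesin, and their partners gave 0 calls among 7 measured genes in limma, with 2 at an unadjusted p under 0.05, 0 with voom weights and 2 with the replicate block. The block called 11.7% of all genes. The log2 differences furthest from 0 were those of Nf2, which encodes merlin (-0.28 ± 0.08, adjusted p = 0.0782 and 0.0332 with the block), and the kinase gene Stk10 (-0.25 ± 0.08, adjusted p = 0.111 and 0.0291 with the block). The moesin gene Msn stood at 1186, 1354 and 1412 CPM in Ly49G+ and 1342, 1682 and 1391 CPM in Ly49I+, overlapping between the groups.

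**Figure D2:**
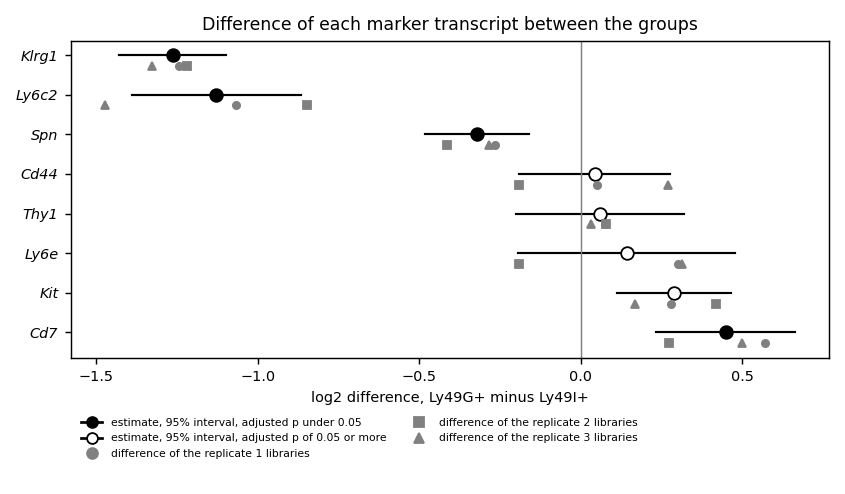
Log2 difference of Ly49G+ minus Ly49I+ (horizontal axis) for the 8 genes. Circles with lines are limma estimates with 95% intervals, filled where the adjusted p is under 0.05, and small grey marks are the differences of the 3 same-numbered pairs. Klrg1 and Ly6c2 lie near -1.26 and -1.13. Spn, Kit, Cd7 and also Thy1, which was not called, keep 1 sign in all 3 pairs. Cd44 and Ly6e have pairs on both sides of 0.

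Cd7 (gene 12516, chromosome 11, 121036747 to 121039478, minus strand) encodes an immunoglobulin-like receptor of T and NK cells. It stood at 492, 502 and 564 CPM in the Ly49G+ libraries, against 331, 415 and 399 CPM in the Ly49I+ libraries. Every Ly49G+ value was above every Ly49I+ value, and replicate 1 was the lowest library of both groups. The log2 difference was 0.45 ± 0.10 (adjusted p = 0.0296, 95% interval 0.23 to 0.66). T cells also make CD7, and 5 of 8 measured T cell markers were higher in the same libraries. Cd3e, listed through Ly49G+ alone, stood at 9.27, 18.5 and 11.5 CPM in Ly49G+ and 0.592, 1.06 and 1.22 CPM in Ly49I+. The part of T cell RNA in the Cd7 difference was not tested; Cd3e was highest in Ly49G+ replicate 2, and Cd7 in Ly49G+ replicate 3. The call was lost without Ly49G+ replicate 1 (adjusted p = 0.0777), 2 (0.137) or 3 (0.122) and without the intensity trend (0.0796). A lncRNA gene, Gm11775, overlaps Cd7 in RefSeq, and since the use of strand in counting is not stated its reads cannot be told apart from those of Cd7.

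Kit (gene 16590, chromosome 5, 75574987 to 75656722, plus strand) encodes the receptor tyrosine kinase for stem cell factor, known from progenitors and mast cells and from early NK cells. It stood at 72.1, 78.2 and 69.6 CPM in Ly49G+, against 59.4, 58.4 and 62.0 CPM in Ly49I+, with no overlap. The log2 difference was 0.29 ± 0.08, with a 95% interval from 0.11 to 0.47, and it did not pass (adjusted p = 0.0803). With the replicate block the adjusted p was 0.0352, in a fit that called 11.7% of all genes. Of 11 markers of mast cells and progenitors 1 was measured, the protease gene Cma1, which NK cells express as well and which differed in the opposite direction (-0.55 ± 0.11, adjusted p = 0.0225). Cma1 lost its call without Ly49G+ replicate 1 or 3 and without the intensity trend.

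Of 16 measured genes that signal below KIT and CD7, 0 passed in limma, with 2 at an unadjusted p under 0.05, 0 with voom weights and 0 with the replicate block. The differences furthest from 0 were those of Stat5b, a transcription factor of cytokine signalling (-0.20, adjusted p = 0.248), and the phosphatase gene Ptpn6 (0.20, adjusted p = 0.299). Of 12 listed ligands of KLRG1, CD44, KIT and CD7, 3 were measured. Lgals1, the galectin 1 gene, averaged 505 ± 44.0 CPM in Ly49G+ and 692 ± 64.2 CPM in Ly49I+ (SD, n = 3 each; log2 difference -0.45 ± 0.09, adjusted p = 0.022). It lost its call without any 1 of the Ly49G+ libraries, without Ly49I+ replicate 2 and without the intensity trend.

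Thy1, Cd44 and Ly6e did not differ beyond the spread of the libraries. Thy1 (gene 21838, chromosome 9, 44043384 to 44048579, plus strand) encodes the GPI-anchored protein CD90. It stood at 172, 220 and 209 CPM in Ly49G+ and 163, 208 and 205 CPM in Ly49I+, so that replicate 1 was the lowest library of both groups and the same-numbered libraries were close. The log2 difference was 0.06 ± 0.12 (adjusted p = 0.795), and its 95% interval of -0.20 to 0.32 allows 0.872 to 1.25 times the Ly49I+ level. Thy1 is also a T cell gene, and the part of T cell RNA in its level was not tested.

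Cd44 (gene 12505, chromosome 2, 102811141 to 102901669, minus strand) encodes the hyaluronan receptor, which is present on most leukocytes. It stood at 494, 532 and 549 CPM in Ly49G+ and 477, 607 and 455 CPM in Ly49I+. The log2 difference was 0.04 ± 0.11 (adjusted p = 0.84, 95% interval -0.19 to 0.28). Ly6e (gene 17069, chromosome 15, 74955025 to 74959904, plus strand), a broadly expressed GPI-anchored member of the Ly6 family, stood at 461, 535 and 534 CPM in Ly49G+ and 374, 610 and 429 CPM in Ly49I+. Its log2 difference was 0.14 ± 0.15 (adjusted p = 0.619, 95% interval -0.19 to 0.48). Both genes were highest of all 6 libraries in Ly49I+ replicate 2, the library with the highest monocyte sum, and the other Ly49I+ libraries lay below every Ly49G+ library. Without that library the differences were 0.17 ± 0.09 for Cd44 (adjusted p = 0.365) and 0.34 ± 0.10 for Ly6e (adjusted p = 0.131). The part of monocyte RNA in these values was not tested.

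**Figure D3:**
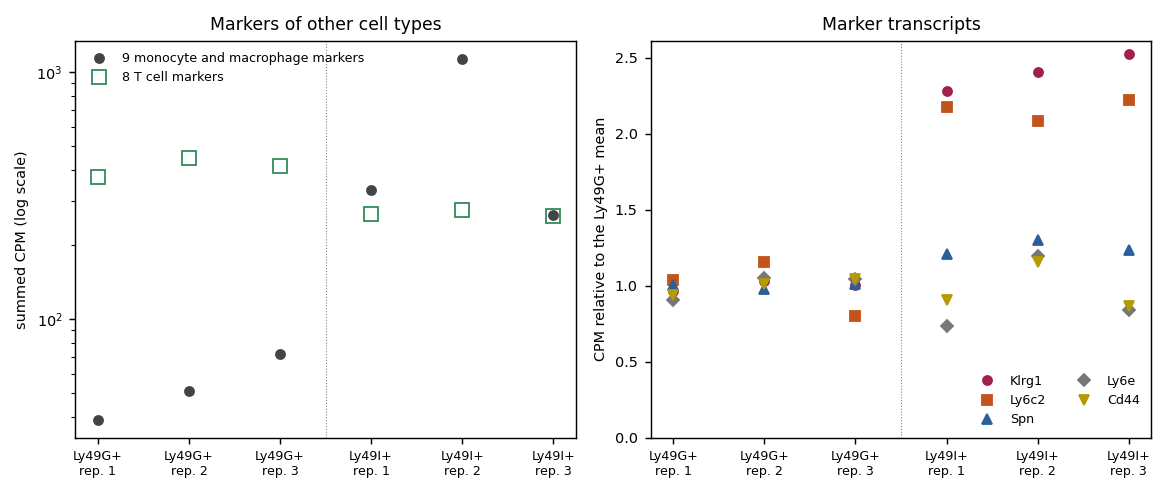
Left, summed CPM (log axis) of 9 monocyte and macrophage markers and 8 T cell markers in each library. Right, CPM of 5 genes divided by their Ly49G+ mean. Ly49I+ replicate 2 has a monocyte sum of 1131 CPM and the highest Ly6e, Cd44 and Spn, while Klrg1 and Ly6c2 are high in all 3 Ly49I+ libraries.

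Apart from Ly6c2 and Ly6e no gene of the 39 listed in the Ly6 and uPAR family was measured. The GPI anchor that the Ly6 proteins and THY1 need is made by a separate set of enzymes. Of 23 measured genes of GPI anchor assembly and release 0 passed in limma, with 6 at an unadjusted p under 0.05, 0 with voom weights and 1 with the replicate block. The block called 11.7% of all genes. The furthest from 0 were Gpaa1, a subunit of the complex that attaches the anchor (-0.44 ± 0.20, adjusted p = 0.251), and Pigl, an enzyme of an early step (0.41 ± 0.15, adjusted p = 0.164).

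Levels of different genes were compared after division by length, as CPM per kilobase of the exons of protein-coding GENCODE M21 transcripts. In Ly49G+ the order was Cd7 (529 ± 40.1, SD, n = 3), Spn (474 ± 8.80), Ly6e (203 ± 16.9), Ly6c2 (135 ± 24.5), Thy1 (93.1 ± 11.8), Cd44 (92.8 ± 4.94), Klrg1 (51.5 ± 1.84) and Kit (14.0 ± 0.836). In Ly49I+ it was Spn (593 ± 23.1), Cd7 (389 ± 45.4), Ly6c2 (292 ± 9.63), Ly6e (188 ± 49.3), Klrg1 (124 ± 6.30), Cd44 (90.7 ± 14.6), Thy1 (89.3 ± 11.7) and Kit (11.4 ± 0.353). Thy1 and Cd44 overlapped in both groups, and no other neighbours in the order did. In level per length Cd7 was thus above Spn in every Ly49G+ library and below it in every Ly49I+ library, and Klrg1 was below Cd44 in Ly49G+ and above it in Ly49I+. These values rest on the annotated transcripts, which may not be those of the authors' counting.

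Other genes listed for NK maturation also differed between the groups. The lists of the late (CD11b+) and early (CD27+) stages were chosen with earlier results of these data known, so they are no independent evidence of direction. Leaving out Klrg1, Ly6c2 and Spn, 12 of 17 measured late-stage genes fell, 1 rose and 4 did not pass. The test called 1.77% of all genes lower and 1.82% higher. The median log2 difference of these late-stage genes was -0.42, against -0.02 over all genes. The sum of 9 monocyte and macrophage markers was also higher in these Ly49I+ libraries (263 to 1131 CPM, against 39.1 to 71.8 CPM in Ly49G+). Most of those markers were listed through Ly49I+ alone. The part of monocyte RNA in the late-stage list, Cx3cr1 included, was not tested. S100a4, among those that fell, stood at 5.85, 10.3 and 8.56 CPM in Ly49G+ and met the listing filter only through Ly49I+. The fractalkine receptor gene Cx3cr1 fell by 2.06 on the log2 scale (SE 0.09, adjusted p = 6.82e-07), S100a6 by 0.72 (adjusted p = 0.00355) and the granzyme gene Gzmb by 0.47 (adjusted p = 0.00585). S1pr5, the receptor that guides NK cells out of the marrow, fell by 0.56 (adjusted p = 0.00598). Of the whole list of 20 genes 15 fell, and 9 did without Ly49I+ replicate 2, 7, 6 and 7 without Ly49G+ replicates 1, 2 and 3, and 8 without the intensity trend.

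Leaving out Cd7, Kit and Thy1, 9 of 19 measured early-stage genes rose, 0 fell and 10 did not pass, with a median of 0.45. In these Ly49G+ libraries 5 of 8 T cell markers also rose and 0 fell (median log2 difference 1.02), and the part of T cell RNA in the early-stage list was not tested. Of those that rose, Cd3e, Cd3d and Trac were listed through Ly49G+ alone, where they are high. The early-stage genes that rose include the interleukin 7 receptor gene Il7r (1.99 ± 0.13, adjusted p = 1.84e-05), the lymphocyte protease inhibitor gene Ctla2a (0.85 ± 0.07, adjusted p = 0.000221), Cd160 (0.92 ± 0.08, adjusted p = 0.000294) and the chemokine receptor gene Ccr2 (0.61 ± 0.08, adjusted p = 0.00207). The difference of Cd7 was thus smaller than those of these 4 genes, and Kit and Thy1 did not pass. Of the whole list of 22 genes 10 rose, and 6 did without Ly49G+ replicate 2 or 3.

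**Figure D4:**
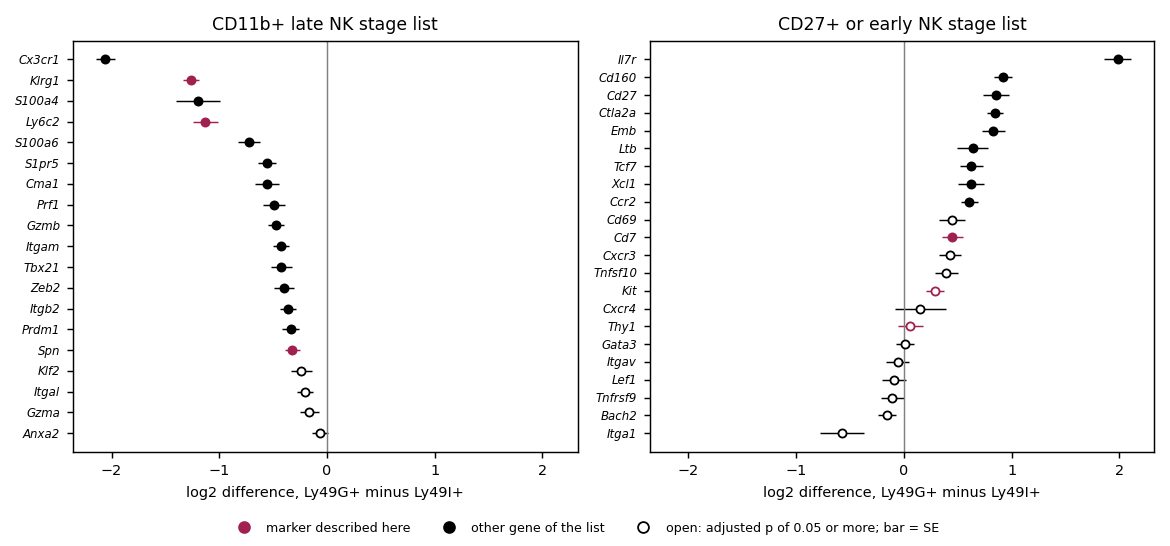
Log2 difference of Ly49G+ minus Ly49I+ (horizontal axis, with SE) of measured genes of the late-stage list (left, 1 gene not drawn) and all measured genes of the early-stage list (right), with the markers described here in red and open circles for an adjusted p of 0.05 or more. Klrg1 and Ly6c2 are near the left end of the late list, Spn is the smallest called fall in it, and Kit and Thy1 are open.

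Transcription factors of NK maturation went both ways, with 4 of 26 measured genes higher, 4 lower and 18 not past the test in Ly49G+. Over all genes 1.82% were called higher and 1.77% lower. Ikzf2, which encodes Helios, rose by 1.07 ± 0.11 (adjusted p = 0.000586). Eomes (0.39 ± 0.07, adjusted p = 0.00893) and the early-stage gene Tcf7 (0.63 ± 0.11, adjusted p = 0.0104) rose as well. Eomes lost its call without any single Ly49G+ library. Id2 fell by 0.42 (adjusted p = 0.0139) and also lost its call without any single Ly49G+ library. Tbx21 and Zeb2, whose products T-bet and ZEB2 drive late maturation and Klrg1 in mice, differed by -0.42 ± 0.10 (adjusted p = 0.0441) and -0.40 ± 0.09 (adjusted p = 0.0465), and both lost their call without any single Ly49G+ library, without Ly49I+ replicate 2, without the intensity trend and with the filter on a mean log2 CPM of 4. Zeb2 also lost it without Ly49I+ replicate 1 and with libraries centred on their medians. Without Ly49I+ replicate 2 the list held 3 higher and 1 lower, and without Ly49G+ replicates 1, 2 and 3 it held 3, 1 and 1 higher and 0 lower. Ikzf2 and Tcf7 thus did not both keep their call without Ly49G+ replicate 2, nor without Ly49G+ replicate 3.

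For each gene that passed, the 3 genes of the table with the highest Pearson r of log2 CPM over the 6 libraries were found. Since the groups form separate clusters, such an r mostly follows the difference between groups, and with 8520 genes and 6 libraries high values occur readily, so it is only a description. Klrg1 was followed most closely by Zfp142 (r = 0.999), Cx3cr1 (0.997) and Klra9 (0.994), the last encoding Ly49I, the sorted receptor itself. Ly6c2 was followed by Fnip2 (0.993), Ing4 (0.991) and Enpp4 (0.990). Spn was followed by Flna, the filamin A gene (0.996), Nhsl2 (0.992) and Ptgs1 (0.991), and Cd7 by the chemokine gene Xcl1 (0.995), Itgax (0.988) and Tcf7 (0.988). Of these 12 genes Zfp142, Fnip2, Ing4, Enpp4, Flna and Itgax did not pass the test between groups.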

How the data were processed

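The 6 libraries, 3 Ly49G+ and 3 Ly49I+, were grouped by their titles. Per the labels' protocols, each stranded library used 0.4 µg of total RNA and was sequenced as read pairs of 100 bases. The submitters' processing notes name STAR 2.3.0, CASAVA 1.8.2, build mm10 and limma; no source used here gives the read counter, the annotation or the filter. The authors deposited log2 CPM values in the form of limma's voom, with 0.5 added to each count, 1 added to the library total and scaling to 1000000 reads. Solving that form gave whole reads for 100% of values within 0.001 read. Gene numbers were matched to RefSeq of GRCm38.p6, the assembly of mm10, for 8429 of 8520 genes.

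The deposited log2 values were tested two-sided with limma (version 3.58.1, under R version 4.3.3), with an intensity trend and Benjamini-Hochberg adjustment over 8520 genes at 0.05, and the same steps were tested on simulated data. Levels are 2 to the power of the deposited log2 value. Alternatives were other priors, scalings, filters, pseudocounts, voom weights on the recovered reads, the replicate block and leaving out each library. Deviations from the group means of libraries with the same replicate number correlated over genes at 0.371, 0.114 and 0.156. Other pairs reached 0.359, so these values do not settle whether the numbers pair the libraries. The main test did not pair them, and the replicate block was only an alternative. The genes named are all measured markers, the 3 genes most like each called marker, and per list up to 4 called genes with the smallest adjusted p, or up to 2 of the largest difference where none passed; other genes were named after their values were seen. 1 gene of the late-stage list is counted but not reported here. The genes and lists were chosen with earlier results of these data known. Python 3.11.15, numpy 2.4.6, pandas 2.3.3 and matplotlib 3.10.9 were used.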

Additional observations from a re-analysis of the deposited data

How the results depend on the processing

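Klrg1 and Ly6c2 passed in all 15 alternatives run. Spn passed in 8, Cd7 in 11 and Kit in 1 of them, and Thy1, Cd44 and Ly6e in 0, with every difference of Klrg1, Ly6c2, Spn, Cd7 and Kit keeping its sign. Without the intensity trend 2 of the 8 markers and 19 genes of the context lists (against 4 and 34) were called, Spn (-0.32) and Cd7 (0.45) no longer passing. Spn also did not pass with median centring (-0.30), nor with the replicate block without Ly49I+ replicate 2 (-0.27), an alternative chosen after seeing the data. With the replicate block Kit passed (0.29), 993 genes were called against 306, and no other marker changed its call. Leaving out 1 library at a time gave 94 to 644 called genes, 2 to 4 called markers and 14 to 40 called genes of the lists, and differences of -1.30 to -1.23 for Klrg1, -1.24 to -0.98 for Ly6c2, -0.34 to -0.29 for Spn, 0.35 to 0.51 for Cd7, 0.24 to 0.32 for Kit, -0.01 to 0.34 for Ly6e, -0.05 to 0.17 for Thy1 and -0.04 to 0.17 for Cd44. Thy1 turned negative without Ly49G+ replicate 2 (-0.0097) or Ly49I+ replicate 1 (-0.0529), Ly6e without Ly49I+ replicate 1 (-0.0090), and Cd44 without Ly49I+ replicate 1 (-0.0031) or 3 (-0.0375). The causes were not tested; leaving out a library also leaves fewer samples. The planned sum of Ly6c1 and Ly6c2 was not run, as Ly6c1 was not measured here.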
